A study of Mus musculus with 8 samples.

Results

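The mouse genome holds stretches of a megabase and more without a protein-coding gene, and 209 such windows were followed here for dimethylation of lysine 9 on histone 3 (H3K9me2) in regulatory T cells (Treg). The autosomes were divided from the 3 Mb position onward into windows of 1 Mb on a fixed grid, and a window was kept when no protein-coding gene span of the RefSeq annotation of mm10 overlapped it. This rule, which used no measured value, kept 209 of 2394 autosomal windows (8.73%), out of 2621 windows on the autosomes and X. The windows are not empty: 140 held long non-coding RNA genes (343 genes), 181 held pseudogenes, 15 held microRNA genes, and 5 held variable (V) segments of antigen receptor loci, which the annotation types separately from protein-coding genes. In 3 windows no gene of any type was annotated.

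All mice were C57BL/6 and 8 to 12 weeks old. Treg sorted from tumours gave 6 H3K9me2 libraries by CUT&RUN, a method that cuts out DNA at the sites of a bound antibody, 3 of wild-type genotype (WT) and 3 in which Jmjd1c was conditionally knocked out in Treg (cKO). ATAC-seq, which marks accessible DNA by transposase insertion, was done on 1 tumour Treg library and 1 spleen Treg library, both WT. The labels name neither the Cre driver nor the tumour, do not say whether the samples came from separate mice, and give the same strain, age and sorting scheme for both genotypes, so that p-values measure only the spread between these libraries, which may be technical.

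H3K9me2 is written mainly by the methyltransferases G9a and GLP and removed by demethylases of the KDM3 family, to which Jmjd1c (Kdm3c) belongs. In many cell types it forms broad domains in gene-poor, late-replicating chromatin, much of which lies at the nuclear lamina. Gene deserts are typical of such chromatin, and some of them hold distant enhancers of the genes at their edges.

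The deposited files were peak lists, so the measure was the percent of a window covered by peaks of a library. Replicates 1 to 3 are given in this order throughout. Peaks covered 5.36, 4.45 and 3.63% of the genome in cKO and 3.89, 4.10 and 3.39% in WT. Because these totals differed, the covered percent of a window was also divided by the genome-wide percent of its library, and a relative coverage of 1 is the genome-wide level. Depth was 24774509 to 30313851 tags per H3K9me2 library, and 11293674 and 11068821 for tumour and spleen ATAC. No RNA was measured and the peak lists hold no reads of the deleted exons, so the loss of Jmjd1c was not checked here. In the ATAC lists, 6 of 7 T cell and Treg markers had a peak in both tissues (25 tumour and 10 spleen peaks; Foxp3 had 2 in each), Ctla4 had none, and the CD8 T cell genes Cd8a and Cd8b1 had none. Of markers of other cells, the B cell gene Ms4a1 had no peak and Cd79a had 1 in each tissue, the myeloid list had 3 tumour peaks over 2 of 4 genes and none in spleen, Mlana alone of 4 melanocyte and epithelial genes had 1 tumour peak, and the stromal list had 8 tumour and 2 spleen peaks over 2 of 3 genes. The part of such cells in the results below was not tested. The library names in the file headers carry prefixes that no cKO and WT library share, so whatever these mark and the genotype cannot be told apart, and cKO replicates 1 and 3 carry the same number in those names.

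The transcribed content of the windows is shown by the microRNAs and promoters they hold, given with RefSeq sequences on GRCm38.p6. Mature sequences are given for 15 of the 17 microRNA genes, with 16 different seeds among 19 mature forms. The sequences below run 5′ to 3′ with the seed, bases 2 to 8, in capitals. The first pair is shown because it belongs to the T cell microRNA cluster Mir181a-1 and Mir181b-1, known to tune T cell receptor sensitivity, the second pair because its members share a seed but lie in windows that differed in the test, and the remaining ones because their windows were lower in cKO.
miR-181a-5p: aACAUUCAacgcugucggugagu
miR-181b-5p: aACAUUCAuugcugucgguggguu
miR-195b: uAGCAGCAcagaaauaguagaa
miR-6342: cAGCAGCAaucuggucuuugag
miR-6238: uUAUUAGUcaguggaggaaaug
miR-6370: gCAGGAACagcaaaggggaag
miR-3964: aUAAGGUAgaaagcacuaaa
miR-181a-5p and miR-181b-5p share the seed ACAUUCA, and miR-195b and miR-6342 share AGCAGCA, the seed of the miR-15/16 family.

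The window of the miR-181 cluster, chr1:137000001-138000000, lies between Nr5a2, a nuclear receptor gene, and Ptprc, which encodes the leukocyte phosphatase CD45. Its relative coverage was 1.65, 1.62 and 1.53 in cKO and 1.18, 1.53 and 1.23 in WT, so all 3 cKO libraries stood above all 3 WT libraries, by a narrow gap. This difference did not pass the test across windows (limma, adjusted p = 0.209). No H3K9me2 or ATAC peak of any library lay on either hairpin, and the nearest tumour ATAC peak was 43.1 kb from Mir181a-1. The 2 microRNAs with the seed AGCAGCA lay in unlike surroundings. Around Mir6342 relative coverage was 1.03, 0.783 and 0.742 in cKO and 1.80, 1.58 and 1.57 in WT (limma, adjusted p = 1.35e-05). Around Mir195b it was low in both genotypes, at 0.541 in cKO and 0.424 in WT on average, and did not pass the test (limma, adjusted p = 0.557). The windows of Mir1187, Mir6370, Mir6238 and Mir3964 were also lower in cKO, of which that of Mir6238 kept its call whichever library was left out, as did that of Mir6342, while the others kept it under 3 or 4 of 6 omissions. An H3K9me2 peak lay on 3 of 15 hairpins in at least 1 library.

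The windows held 281 annotated promoters (250 bases before to 50 after a transcript start) of 244 genes. They had a median of 42.0% G and C, against 52.7% over all 32851 promoters in the table, and a median of 2 CG dinucleotides against 7. Only 12 of them (4.27%) held 10 or more CG dinucleotides, against 43.5% of all promoters. The windows were chosen for the lack of protein-coding gene spans, whereas the 32851 promoters were not limited by gene type. The part of gene type in these gaps was not tested. No H3K9me2 peak touched 205 of the 281, and 59 were touched in 1 library, 16 in 2 and 1 in 3. The same count over all promoters is not given here, so these numbers cannot be read as few or many. The following 3 are printed in full with each CG in capitals, the letters searched being CG, which reads the same on both strands. Gm4258 (chr1:137898214-137898513, plus strand) and BC002059 (chr17:16951286-16951585, plus strand) are shown as examples of the 4 promoters that an ATAC peak touched in both tissues. Gm41932 (chr1:113101869-113102168, minus strand) is shown because it was the promoter with H3K9me2 peaks in 3 libraries, namely cKO replicate 3 and WT replicates 1 and 2.
Gm4258: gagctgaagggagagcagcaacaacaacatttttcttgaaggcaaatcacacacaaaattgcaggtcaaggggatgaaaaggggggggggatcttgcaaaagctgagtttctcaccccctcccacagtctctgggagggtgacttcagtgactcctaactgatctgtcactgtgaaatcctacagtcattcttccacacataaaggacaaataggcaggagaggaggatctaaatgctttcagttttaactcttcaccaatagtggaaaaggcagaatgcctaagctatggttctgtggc
BC002059: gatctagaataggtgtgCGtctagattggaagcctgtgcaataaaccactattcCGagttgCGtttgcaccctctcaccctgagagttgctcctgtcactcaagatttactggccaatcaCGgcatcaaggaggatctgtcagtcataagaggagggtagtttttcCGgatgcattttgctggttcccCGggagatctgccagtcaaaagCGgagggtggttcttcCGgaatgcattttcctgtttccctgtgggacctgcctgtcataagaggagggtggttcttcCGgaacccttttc
Gm41932: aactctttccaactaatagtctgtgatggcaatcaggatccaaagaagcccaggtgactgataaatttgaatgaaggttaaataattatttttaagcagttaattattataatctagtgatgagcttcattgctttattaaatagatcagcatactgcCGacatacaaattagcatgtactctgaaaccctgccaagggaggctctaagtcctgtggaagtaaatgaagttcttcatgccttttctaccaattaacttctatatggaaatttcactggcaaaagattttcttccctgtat
Gm4258, a long non-coding RNA gene in the window of the miR-181 cluster, had no CG in these 300 bases although it was open in both tissues. An H3K9me2 peak touched it in WT replicate 3 alone. BC002059 held 9, and H3K9me2 peaks touched it in cKO replicates 1 and 3. Gm41932 held 1.

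Gene-free windows carried less of the H3K9me2 coverage in cKO libraries than in WT libraries. Peaks covered 5.30, 3.29 and 3.03% of the 209 windows in cKO and 5.26, 4.68 and 3.71% in WT. In undivided percent the groups overlapped, because cKO replicate 1 lay just above the highest WT library. Divided by the genome-wide level, the means were 0.989, 0.740 and 0.835 in cKO and 1.35, 1.14 and 1.09 in WT, so every cKO library lay below 1 and every WT library above 1, and the groups did not overlap. The group means were 0.855 ± 0.126 (SD, n = 3) in cKO and 1.2 ± 0.139 (SD, n = 3) in WT, a ratio of 0.715. All other autosomal windows were covered to 5.48, 4.69 and 3.80% in cKO and 3.76, 4.08 and 3.40% in WT. Set against these within the same library, gene-free windows were covered 0.968, 0.701 and 0.799 times as much in cKO, and 1.4, 1.15 and 1.09 times as much in WT. The number of gene-free windows above the genome-wide level was 92, 27 and 53 of 209 in cKO and 158, 128 and 115 in WT.

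**Figure D1:**
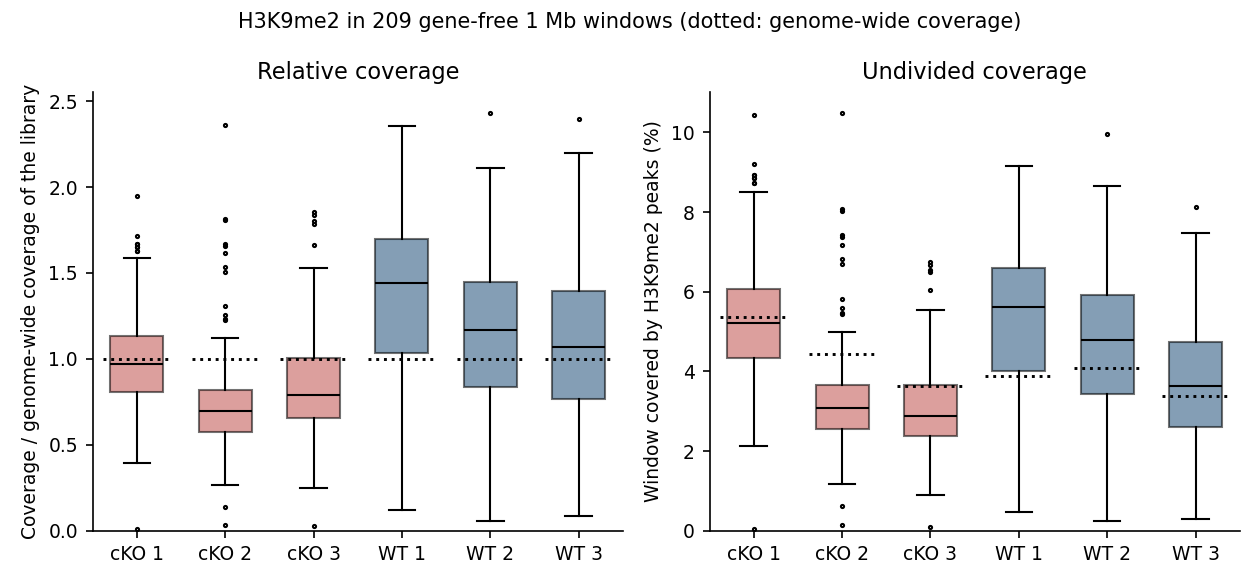
H3K9me2 in the 209 gene-free windows of each library, as coverage divided by the genome-wide coverage (left, no unit) and as percent of the window (right); boxes span the quartiles with the median, whiskers reach 1.5 times the box length, points lie beyond, and the dotted line is the library's genome-wide coverage. The median window lies below the line in the 3 cKO libraries and above it in the 3 WT libraries, while in percent the box of cKO replicate 1 lies in the range of the WT boxes.

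In the fit across all windows, 208 of the 209 had a mean coverage of 1% or more and were tested. Of these, 91 (43.75%) were lower in cKO at an adjusted p under 0.05 (limma on relative coverage), against 10.8% of all 2552 windows tested, and 2 (0.962%) were higher, against 3.8% of all. The median difference was -0.353 in units of the genome-wide level, against 0.0676 over all windows, and ranged from -1.01 to 0.345. A negative difference was seen in 173 of 208 (83.2%), against 40.2% of all windows. All 3 cKO libraries lay below all 3 WT libraries in 97 gene-free windows (46.6%; 14.1% of all windows) and above them in 8 (3.85%; 14.9% of all windows). Gene-free windows made up 33.1% of all windows that were lower in cKO, and the 91 lay on 17 chromosomes. Their median relative coverage was 0.890 in cKO and 1.53 in WT, a description of windows chosen by this test. In the fit, the spread of each window was taken wholly from the trend over all windows. The calls depended both on dividing by the genome-wide level and on the length of the lists. On undivided percent limma called 0 windows in either direction among all 2552 (0%, lowest adjusted p 0.140). There, 576 windows had an unadjusted p under 0.05 (limma), of which 41 gene-free windows were lower and 7 higher. Lists cut to equal length by the authors' score were still divided by the genome-wide level. On these limma called 0 windows as well, with a ratio of group means of 0.805 and overlapping groups. Without cKO replicate 2, cKO replicate 3 or WT replicate 1 the share of gene-free windows lower in cKO was 25, 26.4 and 23.6%, and 39 of the 91 were called under every omission of 1 library.

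On undivided percent, the median difference was -0.699 percentage points in gene-free windows and 0.937 points over all windows. All 3 cKO libraries lay below the 3 WT libraries in 15 gene-free windows (7.21%), against 1.8% of all windows, and above them in 10 (4.81%), against 26.6% of all windows. Without cKO replicate 1, an alternative added after the data were seen, 40 of 207 gene-free windows were lower on undivided percent (limma, adjusted p under 0.05), as were 107 of all 2548, while 0 gene-free windows and 82 of all were higher. Leaving out any of the other 5 libraries gave 0 calls.

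**Figure D2:**
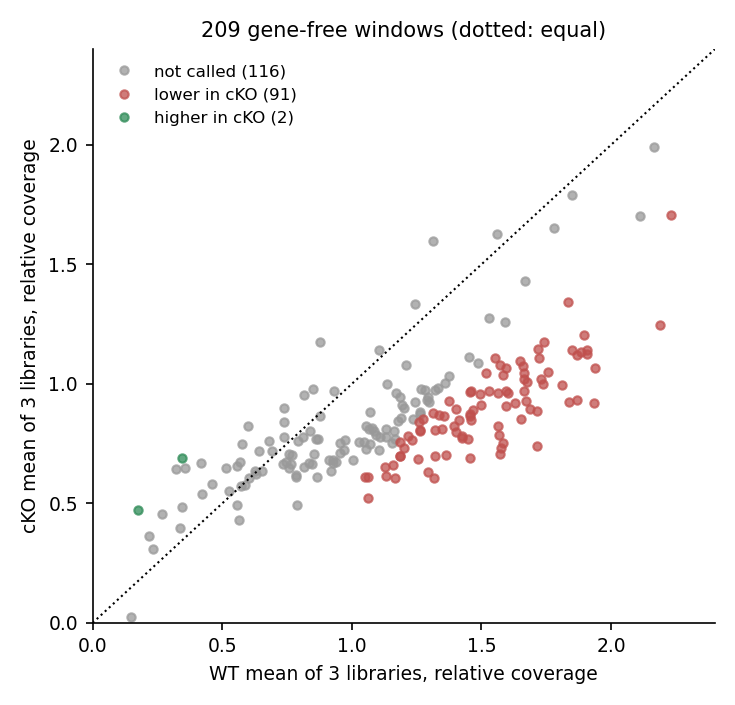
Mean relative coverage of each gene-free window in the 3 WT libraries (x) and the 3 cKO libraries (y), both divided by the genome-wide coverage; red, lower in cKO (91 windows), green, higher (2), grey, not called, including the window not tested. Most windows with high WT values lie below the dotted line of equality, while most with the lowest WT values lie on or above it.

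The SD of relative coverage over the 209 windows was 0.266, 0.288 and 0.292 in the cKO libraries and 0.517, 0.420 and 0.460 in the WT libraries, so the groups did not overlap. Divided by the library's own mean, the SD was 0.269, 0.390 and 0.350 in cKO and 0.382, 0.368 and 0.421 in WT, which overlapped. The order of the windows was shared within a genotype: Pearson's r across the 209 windows was 0.807 to 0.872 between WT libraries, 0.700 to 0.801 between cKO libraries and 0.503 to 0.721 between a cKO and a WT library, where windows of a chromosome and of a library are not independent.

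Relative coverage was set out by the number of protein-coding genes in a window. In WT, mean relative coverage was 1.2 in windows with 0 genes, 1.01 with 1 or 2 and 1.0 with 3 to 5. In cKO it was 0.855, 0.866 and 1.06 in the same classes, where the step from 0 genes to 1 or 2 was within the SD of 0.126 between libraries and cKO replicate 1 went from 0.989 to 0.967. Windows with 1 or 2 genes were lower in cKO in 113 of 484 (23.3%), and all autosomal windows with genes in 136 of 2181 (6.24%; limma, adjusted p under 0.05). In windows with 0 genes the libraries of the groups did not overlap, whereas with 1 or 2 genes they did, through cKO replicate 1 at 0.967 and WT replicate 3 at 0.953. The groups also parted, with cKO higher, at 3 to 5 genes (cKO 1.03 to 1.10, WT 0.991 to 1.01). They parted in that direction at 6 to 10 genes too (cKO 1.13 to 1.21, WT 1.03 to 1.09), and overlapped above 10 genes.

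**Figure D3:**
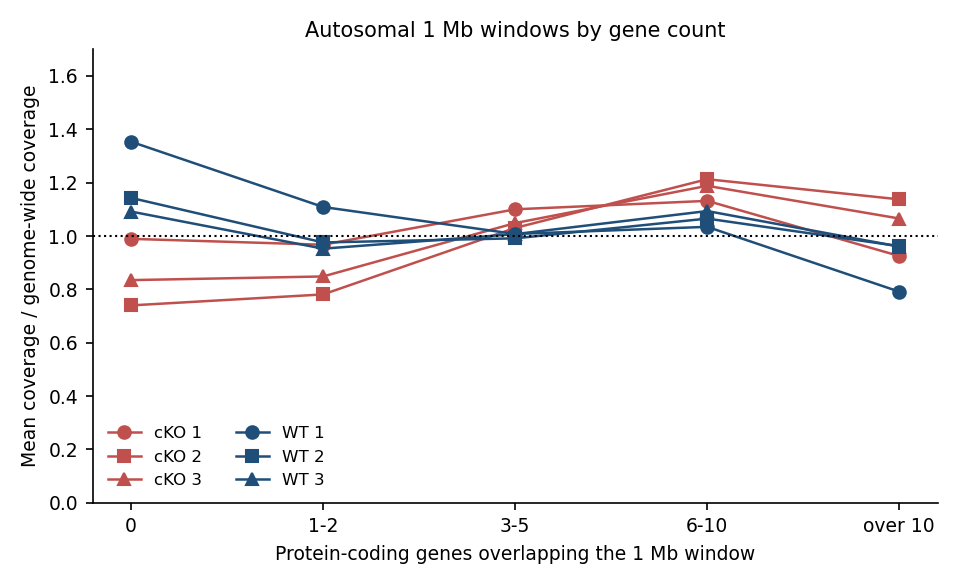
Mean relative H3K9me2 coverage (y, no unit) of autosomal 1 Mb windows by the number of protein-coding genes that overlap them (x), 1 line per library. At 0 genes the 3 cKO libraries (0.740 to 0.989) lie below the 3 WT libraries (1.09 to 1.35).

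Distance from genes gave the same picture at a finer scale. In 100 kb bins that overlap a protein-coding gene, relative coverage was 1.01, 1.12 and 1.09 in cKO and 0.926, 0.997 and 1.01 in WT, with the lowest cKO library just above the highest WT library. Bins up to 100 kb from a gene overlapped between genotypes (means 1.06 and 1.04). From there the WT mean went from 0.997 at 100 to 250 kb through 1.13 at 500 kb to 1 Mb to 1.35 beyond 1 Mb, and the cKO mean from 0.921 through 0.802 to 0.865. Beyond 1 Mb the libraries stood at 0.983, 0.746 and 0.865 in cKO and 1.58, 1.26 and 1.21 in WT, over 586 bins. In undivided percent these bins were covered to 5.27, 3.31 and 3.14% in cKO and 6.14, 5.14 and 4.09% in WT, again with cKO replicate 1 among the WT values. Tumour ATAC peaks went from 16.0 per Mb in bins with a gene to 0.188 per Mb beyond 1 Mb.

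**Figure D4:**
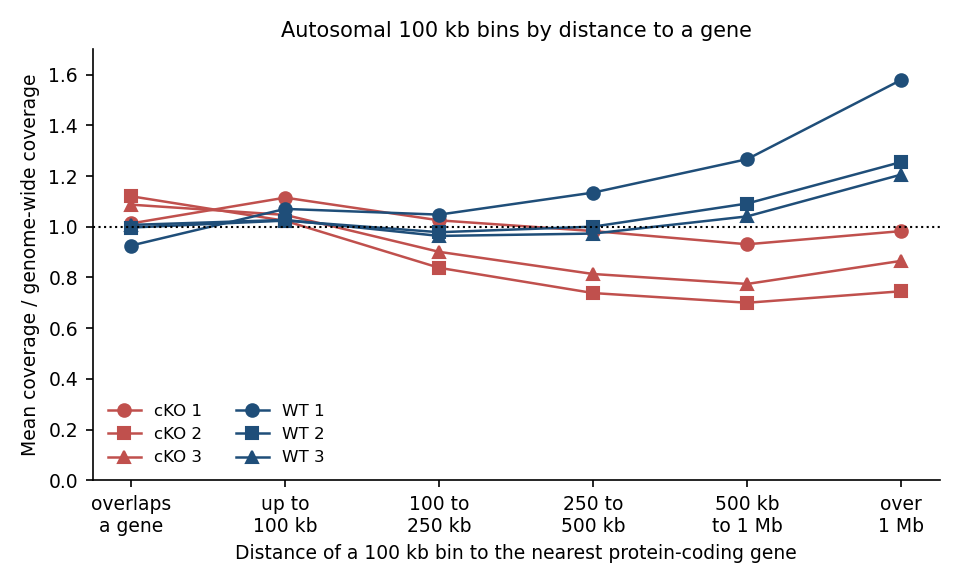
Mean relative H3K9me2 coverage (y, no unit) of autosomal 100 kb bins by distance to the nearest protein-coding gene (x), 1 line per library. The lines cross near genes and part with distance: beyond 1 Mb the WT libraries lie at 1.21 to 1.58 and the cKO libraries at 0.746 to 0.983.

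The size of the gene-free stretch followed the same order. The 209 windows formed 148 runs of adjacent windows, of which 102 were single windows, 33 held 2, 11 held 3 and 2 held 4. Of tested windows, 29.7% were lower in cKO among single windows, 45.5% in runs of 2 and 75.6% in runs of 3 or 4, with a cKO to WT ratio of 0.769, 0.716 and 0.614. Where both neighbouring windows were gene-free too, 13 of 15 were lower in cKO, and relative coverage was 1.06, 0.854 and 0.991 in cKO and 1.82, 1.5 and 1.53 in WT. In all 13 runs of 3 or 4 windows, the relative coverage of the 3 cKO libraries lay below that of the 3 WT libraries, with ratios of 0.516 to 0.775. In undivided percent the groups overlapped in all 13. Over all 148 runs the groups parted this way in relative coverage in 68 and the opposite way in 7. Of all single windows tested, 14.1% parted this way and 14.9% the opposite way, and runs of windows with genes were not formed.

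The 2 runs of 4 windows were both lower in cKO throughout. The first, chr14:89000001-93000000, lies between the protocadherin genes Pcdh20 and Pcdh9, whose products are adhesion molecules of neurons, in a gap of 4.54 Mb. It was covered at 1.03, 0.805 and 0.880 times the genome-wide level in cKO and 1.94, 1.43 and 1.5 in WT, and 4 of 4 windows passed the test. The second, chr18:26000001-30000000, lies between Celf4, an RNA-binding protein gene, and Pik3c3, which encodes the lipid kinase Vps34 of autophagy. It stood at 0.874, 0.602 and 0.618 in cKO and 1.60, 1.29 and 0.899 in WT, with 4 of 4 windows called although WT replicate 3 came close to cKO replicate 1. With 1 library left out at a time, its windows kept their calls under 2, 5, 4 and 5 of the 6 omissions. Those of the run on chromosome 14 kept theirs under 5, 6, 6 and 5. Neither run held a tumour ATAC peak.

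Of the 11 runs of 3, which tie in length, 6 are described in full, taken in chromosome order. The run chr3:42000001-45000000, which ends before the protocadherin gene Pcdh10, had the lowest ratio of all 13, 0.516, with relative coverage of 0.866, 0.662 and 0.739 in cKO and 1.67, 1.4 and 1.33 in WT. The run chr1:112000001-115000000, from Dsel to the contactin-associated gene Cntnap5a, had the highest WT mean of the 13 runs of 3 or 4 windows, 1.99 ± 0.121 (SD, n = 3), against 1.17 ± 0.146 in cKO (SD, n = 3). The run chr1:101000001-104000000, between Cntnap5b and the cadherin gene Cdh20, stood at 1.05 ± 0.0837 in cKO and 1.79 ± 0.381 in WT (SD, n = 3 each), and chr5:78000001-81000000, between Igfbp7 and the latrophilin gene Adgrl3, at 1.0 ± 0.162 and 1.60 ± 0.260 (SD, n = 3 each). All 3 windows of each of these 4 runs were lower in cKO. In chr2:98000001-101000000, between Lrrc4c, which encodes a netrin-G ligand, and Iftap, 2 of 3 windows were lower, and in chr1:47000001-50000000, between the zinc transporter gene Slc39a10 and Tmeff2, 1 of 3, with a ratio of 0.775. The other 5 runs of 3 lie between Tenm3 and Aga and between Got2 and Cdh8 on chromosome 8, between Hace1 and Grik2 on chromosome 10, and between Olfm4 and Pcdh17 and between Slitrk5 and Gpc5 on chromosome 14. Their ratios were 0.562 to 0.699, and each had 1 or 2 of 3 windows lower in cKO.

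By chromosome, the mean of the gene-free windows was lower in cKO on all 19 autosomes in relative coverage, and the groups did not overlap on 13. Undivided, they overlapped on all 19. Of all single windows tested, 14.1% had the 3 cKO libraries below the 3 WT libraries in relative coverage. Chromosome means of windows with genes were not formed, and all 19 autosomes share the same 6 libraries and divisors. Chromosome 8 showed the lowest ratio, 0.629: its 14 windows stood at 1.11, 0.830 and 0.882 in cKO and 1.71, 1.39 and 1.38 in WT, and 10 of 14 passed the test. On chromosome 5, 11 of 15 passed. Chromosomes 9 and 13, with 5 gene-free windows each, had none that passed. There WT itself was under the genome-wide level, at 0.889, 0.910 and 0.577 on chromosome 9 against 0.808, 0.533 and 0.725 in cKO, and the ratio on chromosome 13, 0.891, was the nearest to 1. All 3 WT libraries were also under that level on chromosomes 10 and 11 (means 0.926 and 0.729). On these, 2 and 1 windows were lower in cKO, and 1 on each was higher.

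**Figure D5:**
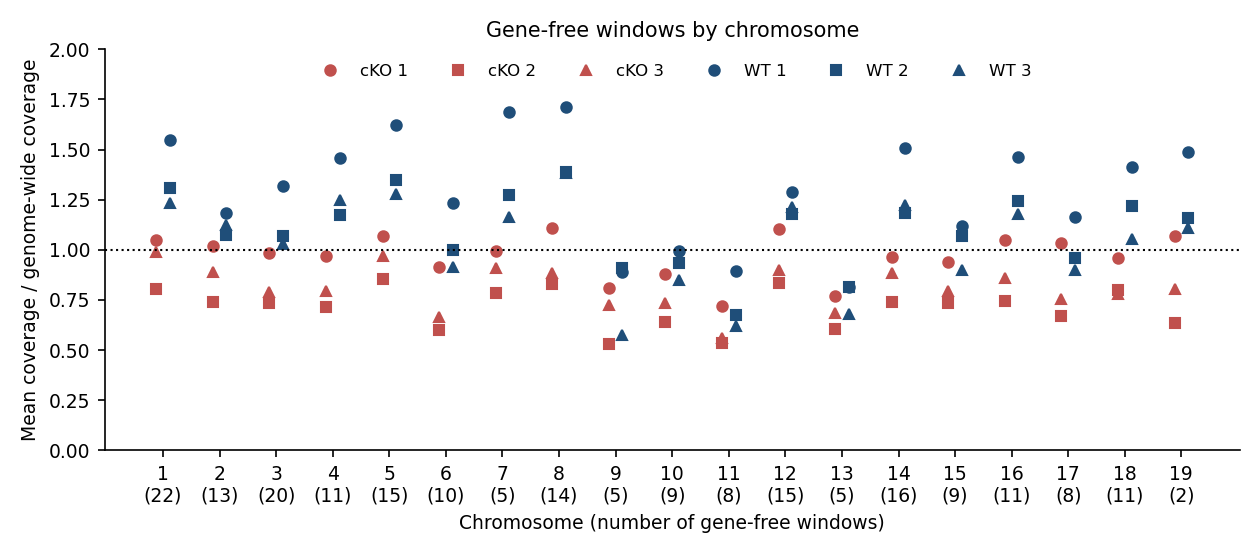
Mean relative H3K9me2 coverage (y, no unit) of the gene-free windows of each autosome (x, with the number of windows in brackets), 1 point per library. On chromosome 8 the libraries part (cKO 0.830 to 1.11, WT 1.38 to 1.71), on chromosomes 9, 10, 11, 13, 15 and 17 they overlap.

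The window with the smallest p among those lower in cKO was chr8:98000001-99000000, next to Cdh8, which encodes a cadherin of neurons. Peaks covered 5.76, 3.01 and 3.67% of it in cKO and 8.61, 6.74 and 6.60% in WT, so that the groups parted even undivided. The difference in relative coverage was -1.01 ± 0.156 (SE; limma, adjusted p = 6.76e-08). The window chr3:43000001-44000000, in the run before Pcdh10, was covered to 4.58, 2.77 and 2.70% in cKO and 6.80, 6.38 and 6.25% in WT (limma, adjusted p = 1.27e-07). In chr2:98000001-99000000, beside Lrrc4c, the percents were 6.74, 3.53 and 4.17 in cKO and 7.47, 7.44 and 7.05 in WT, and in chr12:6000001-7000000, between Klhl29 and Apob, the gene of apolipoprotein B, they were 5.69, 2.18 and 2.57 in cKO and 5.73, 5.94 and 6.21 in WT. These 4 of the 10 windows with the smallest p, counting only windows without overlap of the groups in relative coverage, parted without any scaling. That condition left out chr1:27000001-28000000 (limma, adjusted p = 2.37e-06), where the relative coverage of cKO replicate 1, 1.15, exceeded that of WT replicate 3, 1.08. The other 6 overlapped undivided, each through cKO replicate 1 and WT replicate 3. They were the neighbouring window at 97 Mb on chromosome 8, chr1:101000001-102000000 beside Cntnap5b, chr1:114000001-115000000 beside Cntnap5a, chr4:79000001-80000000 between the receptor phosphatase gene Ptprd and the melanin synthesis gene Tyrp1, chr6:75000001-76000000 beside Ctnna2, which encodes the alpha-catenin of neurons, and chr16:82000001-83000000 beside the adhesion gene Ncam2. Their adjusted p ran from 5.58e-07 to 1.16e-05 (limma). All 10 windows stayed lower at an adjusted p under 0.05 when any 1 library was left out. Of the 10 windows, 2 held an ATAC peak in tumour.

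Only chr11:10000001-11000000, between the transporter gene Abca13 and Vwc2, a secreted BMP antagonist gene, was higher in cKO with groups that did not overlap. It was among the least covered windows, with 3.21, 2.41 and 1.01% in cKO and 0.776, 0.982 and 0.295% in WT (limma, adjusted p = 0.0416), and the call held when cKO replicate 3 was left out (limma, adjusted p = 0.0479) but not when any of the other 5 libraries was (up to 0.200). The other window higher in cKO, chr10:15000001-16000000, overlapped between groups (limma, adjusted p = 0.0418), and its call was kept under 2 of the 6 omissions. Of the 5 least covered windows, another lies on chromosome 11, nearer to Fancl than to Bcl11a, on its other side. Bcl11a is a transcription factor gene of lymphocyte and blood development. Another lies on chromosome 10, nearer to Cited2, a transcriptional coregulator gene, than to Nmbr. Another lies on chromosome 13, nearer to Cetn3 than to Mef2c, a transcription factor gene of muscle, neurons and lymphocytes. A link between the low coverage and any of these genes was not tested. In the windows nearest to Fancl, Cited2 and Cetn3, relative coverage was 0.216 to 0.267 in WT and 0.307 to 0.455 in cKO, with no call.

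The antigen receptor loci held both extremes. Of the 5 windows with the highest mean over 6 libraries, chr12:115000001-116000000 and chr12:114000001-115000000 hold 54 and 88 V segments of the immunoglobulin heavy chain. The former was covered at 1.95, 2.36 and 1.66 times the genome-wide level in cKO and 2.19, 2.11 and 2.20 in WT, with no call in either. The lowest of all 209 windows, chr14:53000001-54000000, holds 94 V segments of the T cell receptor alpha locus. Peaks covered 0.05, 0.15 and 0.10% of it in cKO and 0.659, 0.514 and 0.50% in WT, without overlap, and it was the one window under the minimum for testing. The 2 kappa light chain windows on chromosome 6 lay between, with 0.632 to 1.08 in cKO and 0.875 to 1.48 in WT, and 1 of them was lower in cKO (limma, adjusted p = 0.0359; called under 2 of the 6 omissions of 1 library). V segments are similar copies among which short reads can be misplaced, so these values are uncertain, and the effect was not tested. How much DNA of these loci the cells of each library held was not measured either, as no control library was used. The other windows among the 5 highest lie between Gm4868 and Tmem132c on chromosome 5, between Dok5 and the synaptic cerebellin gene Cbln4 on chromosome 2, and beside Sall3 on chromosome 18. Of these, the one on chromosome 5 was lower in cKO (limma, adjusted p = 0.0218), a call kept under 1 of the 6 omissions.

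In every library, peaks in gene-free windows were longer and stood out less from their surroundings than peaks elsewhere, values given here as a description. There were 59.9, 32.4 and 29.9 peaks per Mb in cKO and 60.8, 51.3 and 38.1 in WT, against 46.2 to 70.3 and 42.7 to 52.7 in other autosomal windows. Their length averaged 866 to 1015 bp against 774 to 822 bp elsewhere. The authors' fold over the surrounding 10 kb was lower, with a median of 2.20 to 2.25 against 2.57 to 2.88, and 5.56 to 8.35% of peaks reached a fold of 3, against 33.6 to 46.4%. The authors' score, in tags of the library, was higher, with a median of 12 to 14.5 against 7.5 to 9.

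Single peaks were rarely shared. On average 19.5% of the gene-free peaks of a WT library touched a peak of another WT library, 18.9% did so among cKO libraries, and 18.4% between genotypes, against 18, 19.8 and 17.9% in other windows. A stretch was under a peak in all 6 libraries at 38 places in 34 windows, 0.182 per Mb against 0.169 per Mb elsewhere. The longest, chr8:42576960-42578909, measured 1950 bp, followed by chr15:24317196-24318379 (1184 bp) and chr16:86960395-86961573 (1179 bp).

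Open chromatin was sparse in the gene-free windows of both tissues. The tumour list had 132 peaks there, 0.632 per Mb (exact Poisson 95% interval 0.528 to 0.749), and the spleen list 107, 0.512 per Mb (0.420 to 0.619), against 12.3 and 5.78 per Mb in other autosomal windows. These intervals cover counting error only, and with 1 library per tissue there is no test. No peak was found in 172 of 209 windows in tumour and 154 in spleen, and 146 had none in either. The tumour to spleen ratio was 1.23 (0.949 to 1.61) against 2.12 in other windows, but its direction turned with the length of the lists: with both cut to equal length by score it was 0.393, and in the stronger 50% of each list 2.50. In the full lists 42 peaks were shared, which was 31.8% of tumour and 39.3% of spleen peaks, against 40.3 and 85.3% in other windows. The shared part of spleen peaks depended on the lists too: it was 16 of 18 (88.9%, against 90.5% in other windows) in the stronger 50% of each list and 23.4% (against 66.8%) at equal length. 

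Of the tumour peaks, 73 of 132 (55.3%) lay in 5 windows, none of which differed in H3K9me2 by the test. The first, chr15:62000001-63000000, begins 9.64 kb beyond Myc, the growth-promoting transcription factor gene, and holds the long non-coding RNA gene Pvt1. It had 20 tumour and 6 spleen peaks, and relative H3K9me2 coverage of 1.67, 1.81 and 1.4 in cKO and 1.32, 1.63 and 1.73 in WT. Both heavy chain V windows followed, with 19 and 13 tumour peaks and 5 and 9 spleen peaks. The window chr16:51000001-52000000, which ends 31.2 kb before Cblb, the gene of a ubiquitin ligase that restrains T cell activation, had 11 and 5, and chr3:21000001-22000000, 76.3 kb before Tbl1xr1, a corepressor subunit gene, had 10 and 6.

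Windows with open chromatin and windows lower in cKO were largely different ones. The 37 windows with a tumour ATAC peak stood at 1.09, 0.859 and 0.945 in cKO and 1.09, 1.09 and 1.04 in WT, with overlapping groups. Of the 36 tested, 4 were lower in cKO (11.1%), near the 10.8% of all windows tested. The 172 without one stood at 0.968, 0.714 and 0.811 in cKO and 1.41, 1.15 and 1.10 in WT, without overlap, and 87 were lower (50.6%). The 91 windows lower in cKO held 5 tumour and 14 spleen ATAC peaks in all. Likewise, 40 of 69 windows without a long non-coding RNA gene were lower in cKO (58.0%), and 51 of 139 tested windows with one (36.7%). Windows with a long non-coding RNA gene held 126 of the 132 tumour ATAC peaks, so these features cannot be told apart here.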

How the data were processed

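H3K9me2 was measured by CUT&RUN in 3 cKO and 3 WT tumour Treg libraries and open chromatin by ATAC-seq in 1 tumour and 1 spleen Treg library. Per the submitters' processing notes, the tools included HOMER, SAMtools 1.11, Bowtie2 2.4.2, Trim Galore 0.6.6, deepTools and Picard, with mm10 as the build. Per the file headers, HOMER peaks were called in each library alone, with no control library. The authors' files give for each peak a normalised tag signal, a score in tags of the library, a fold (ratio) over the surrounding 10 kb and its p-value, per the file headers, and the deposited H3K9me2 lists give the region size while the ATAC lists give a focus ratio (a fraction). The deposited H3K9me2 lists held 24.4 to 43.9% of the peaks their headers report, by a filter that no header states. Peaks therefore mark local enrichment, and the amount of the mark cannot be read from them.

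Peaks were merged within a library and the covered percent of 1 Mb windows was computed. Chromosome lengths were not given, so a chromosome ended at its last peak or gene (2631.62 Mb in all). Windows averaging at least 1% entered a limma 3.58.1 fit (R 4.3.3; genotype as sole term, moderated variances with a trend, Benjamini-Hochberg adjustment over 2552 windows, threshold 0.05), on relative and undivided percent. The script was tested on simulated data. Means over gene-free windows got no test. Named regions were the 10 windows with the smallest p in each direction among called windows whose groups do not overlap, the 8 longest runs (the 2 of 4 windows and, among 11 tied runs of 3, the first 6 in chromosome order), the 5 windows with the highest and the 5 with the lowest mean, and the 5 with the most tumour ATAC peaks. The other higher window, the remaining V segment windows and the miR-181 window were chosen after their values were seen. Gene positions, 21887 protein-coding genes, and sequences came from RefSeq tables. Stretches shared by 6 libraries are given without sequence, as no genome was used here. The windows and lists were chosen with earlier results of these data known.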

Additional observations from a re-analysis of the deposited data

How the results depend on the processing

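The cKO to WT ratio of the gene-free mean stayed below 1 under all 22 alternatives, at 0.852 for undivided percent and 0.643 to 0.805 otherwise, and its groups overlapped for undivided percent and for lists of equal length. The share of gene-free windows lower in cKO was 43.75%, and 10.8% for all windows. It was 0% for both on undivided percent, on its arcsine square root and on lists of equal length (48, 50 and 57 gene-free windows at an unadjusted p under 0.05; limma). It was 21.2% (all windows 5.84%) in the stronger 50% of each list, 28.6% (2.13%) for peaks with a fold of 3 or more, where only 7 gene-free windows were tested, 18.2% (3.74%) with no minimum coverage, 26.0% (5.92%) for the number of peaks, 22.2% (7.0%) in windows of 500 kb, 69.0% (10.7%) in windows of 2 Mb and 66.7% in the 3 windows with no gene of any type (2 windows; the same 10.8% of all). Leaving out 1 library gave 23.6 to 50.2% for gene-free windows and 5.17 to 12.0% for all. The other alternatives stayed within 1.5 times of these shares, and the cause of the changes was not tested. The split of all calls, 97 higher and 275 lower, became 66 and 295 when divided by the autosomal mean and 60 and 287 by the autosomal median. The tumour to spleen ratio of ATAC peaks was 1.23, 2.50 in the stronger 50% and 0.393 in lists of equal length. Peaks shared between libraries averaged 18.7%, and 14.2% when 50% of the shorter peak had to be covered.

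The replicate numbers did not pair the libraries: same-numbered libraries correlated at 0.461, 0.190 and 0.0845 in their deviations, and only cKO replicate 1 correlated best with its own number. With a replicate block, 57.2% of gene-free windows (119) were lower in cKO and all calls became 294 higher and 372 lower. The alternative without assembly gaps was not run, as no genome was used here. With 3 libraries a group and peak lists of unequal length, calls on undivided coverage were made only without cKO replicate 1. Whether depth limits windows with few peaks was not tested.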

Other observations

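The X chromosome, left out of the windows above, held 12 gene-free windows, of which 11 were tested. Their relative H3K9me2 coverage averaged 0.836, 0.692 and 0.728 in the cKO libraries and 1.37, 1.04 and 1.01 in the WT libraries, so the groups did not overlap, as on most autosomes. Of the 11, 7 were lower in cKO and 0 higher (limma, adjusted p under 0.05), and all 11 differences were negative, with a median of -0.441. On undivided percent 9 of the 11 differences were negative and none of the 11 was called, with 2 at an unadjusted p under 0.05 (limma).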
